A study of Mus musculus with 6 samples.

Results

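Bcl11b, Satb1, Tcf7, Lef1, Foxp1, Ets1, Runx1, Runx3, Tox and Myb encode transcription factors that set up or maintain T cell identity, and they are 10 of the 14744 genes in a table of normalized read counts from T follicular helper (Tfh) cells. The genes were named individually and were chosen by their values in the same WT against Bach2-cKO contrast that is described here, so their differences are given as a description and no test is read from them. The study sorted CD4+B220-CD44+PD-1+CXCR5+ cells from mesenteric lymph nodes of mice labelled C57BL/6 (C57BL/6J in the study's methods), 10000 to 30000 cells for a library, and sequenced polyadenylated RNA after SMARTer amplification. Libraries labelled Bach2-cKO (n = 3) came from Bach2fl/fl Cd4-cre mice, and WT libraries (n = 3) came from mice designated WT, which the study describes for its other experiments as littermates that carry Cd4-Cre. The mice were 2 to 3 months old. Cd4-Cre acts from the CD4-expressing stage in the thymus onward and therefore also in cells of the CD8 lineage. The samples are separate libraries by their labels, and p-values measure the spread between these libraries. Values summed to between 7361229 and 8135325 for a library, and the number of genes above 0 was 11648 in WT replicate 1 against 13111 to 13567 in the other libraries.

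T cell identity is kept by a small set of sequence-specific and chromatin-organizing factors that open T lineage genes during thymic commitment and hold genes of other lineages silent. TCF-1 and LEF-1, the products of Tcf7 and Lef1, are HMG-box factors that also act early in Tfh differentiation, while the RUNX, ETS and MYB proteins bind many of the same enhancers. BACH2 is a repressor that binds the motif shared with AP-1 factors.

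The targeted gene was examined as a check of the labels. Bach2 had normalized read counts of 233, 222 and 105 in the WT libraries and 399, 763 and 591 in the libraries labelled Bach2-cKO. Every library labelled Bach2-cKO was thus higher than every WT library, which goes against the label, and a log2 difference of 1.68 ± 0.37 (SE, n = 3 and 3) was fitted. A value for a whole gene does not show which exons the reads came from, so whether the floxed part was deleted was not tested, and each direction below refers to the libraries labelled Bach2-cKO. With a trend of values with transcript length and GC removed, the log2 difference of Bach2 was 1.13 ± 0.44 and the groups overlapped. Foxp3 was lower without overlap in the libraries labelled Bach2-cKO, at -1.76 ± 0.43, and Gata3 was higher without overlap, at 1.48 ± 0.29. The study reports both directions from its RNA sequencing of Bach2-deficient Tfh cells. That sequencing gave the libraries used here, under the same labels, so it is no separate check of the labels. By flow cytometry the study reports a ratio of Tfh to Tfr cells shifted toward Tfh cells. An exchange of labels was not tested.

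Tfh identity was examined with 10 marker genes, all above 0 in every library. Their summed level was 23543, 27131 and 36139 in the WT libraries and 33149, 24120.3 and 29090 in the libraries labelled Bach2-cKO, with Sh2d1a, which encodes the adaptor SAP, the most abundant. Of the 10, 4 were higher and 1 lower without overlap, beside 14.6% and 12.2% of all genes tested (as defined below), and the median log2 difference of the 10 was 0.27. With the trend removed 3 were higher and 1 lower, beside 8.92% and 12.2%, and the median of the 10 was -0.01. The gene that leads a list below is the one with the highest mean over the 6 libraries. The 6 pan T markers summed to 58819, 63578 and 81421 in the WT libraries and 51236, 51316 and 58221 in those labelled Bach2-cKO, so every library of the latter was lower, and Cd3d led the list. Of the 6 genes, 1, Cd3e, was lower without overlap, as deposited and with the trend removed, beside 12.2% of all genes tested. The other 5 overlapped, and the median log2 difference of the 6 was -0.28, or -0.13 with the trend removed. The 9 naive T markers, led by Il7r, summed to 6819, 8089 and 4198 in the WT libraries and 6080.3, 8057 and 5175 in those labelled Bach2-cKO and overlapped, although single genes did not: Dapl1 was lower, at a log2 difference of -3.49 ± 0.60 (SE), and Actn1 was higher, at 0.92 ± 0.38, or 0.57 without WT replicate 1. With a trend of values with length and GC removed, Dapl1 was still lower and Actn1 overlapped. The 6 Treg or Tfr markers, led by Ikzf2, summed to 5656, 6395 and 7891 in the WT libraries and 7255, 5702 and 4907 in those labelled Bach2-cKO and overlapped. Foxp3, which defines Treg cells, was 222, 315 and 344 in the WT libraries and 47.3, 140 and 91 in those labelled Bach2-cKO, lower without overlap at -1.76 ± 0.43, or -2.24 with that trend removed. Ctla4 was also lower without overlap, at -0.38 ± 0.21, but overlapped once the trend was removed. Foxp3, Ctla4, Dapl1 and Actn1 were named after their values were seen. Markers of other cells were summed in the same way. The 6 plasma cell markers summed to 30383 in WT replicate 2 and 8586 in WT replicate 3 against 1801 to 3572 in the other libraries, led by Jchain at 28803 in WT replicate 2. The erythroid list, with 5 of 6 genes analysed, summed to 2867 in Bach2-cKO replicate 3 and 744 in WT replicate 2 and to between 5.05 and 30.8 elsewhere, led by Hbb-bs. The 10 myeloid or dendritic markers summed to 12997 in WT replicate 2 and 10523 in Bach2-cKO replicate 2 against 4649.6 to 7571 in the other libraries, led by Cst3, although Lyz2 was the most abundant in WT replicates 2 and 3 at 7211 and 3444. The 8 NK or ILC markers, led by Tyrobp, summed to 1783, 4397 and 2342 in the WT libraries and 2817, 5691 and 1256 in those labelled Bach2-cKO. The 10 B cell markers, led by Cd79b, summed to 242, 846 and 596 in the WT libraries and 463, 412 and 365 in those labelled Bach2-cKO. The 2 CD8 markers summed to 176, 786 and 552 in the WT libraries and 361, 332 and 413 in the libraries labelled Bach2-cKO, led by Cd8b1. The thymocyte list, with 5 of 7 genes analysed and led by Themis, summed to 1294, 2946 and 2838 in the WT libraries and 1976, 2159.6 and 2227 in those labelled Bach2-cKO, and Rag2 was 0 in all. The stromal or endothelial list, with 6 of 7 genes analysed and led by Pecam1, summed to 461, 533 and 549 in the WT libraries and 596, 517 and 463 in those labelled Bach2-cKO. Single genes in lists of other cells also separated the groups, with the trend removed as well: 1 of 7 B cell genes tested and 1 of 4 plasma cell genes were lower, and 1 of 8 NK or ILC genes and 1 of 2 erythroid genes were higher, beside the shares above. The other genes of the B and plasma cell lists did not share a direction. The B cell gene Ms4a1 was lower, at 35.3, 33.7 and 45.8 in the WT libraries against 2.96, 2.68 and 10.2 (-2.83 ± 0.88), as was the plasma cell gene Xbp1 at -0.51 ± 0.20. Kit, in the NK or ILC list, was higher, at 5.05, 19.1 and 9.36 against 57.6, 50.9 and 32.7 (2.12 ± 0.75). The erythroid gene Alas2 was also higher, at 0, 3.37 and 4.16 against 13.3, 12.1 and 14.3, and was tested only through the libraries labelled Bach2-cKO. Kit and Ms4a1 likewise passed the filter, defined below, only through the group where each was high. Nothing is read from the separation of Alas2, Kit and Ms4a1. Ms4a1, Xbp1, Kit and Alas2 were named after their values were seen. The part of these cells in the values of the 10 factors was not tested. In sorted bulk samples, fewer cells of a type and less RNA for each cell cannot be told apart.

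A gene was tested if 3 or more libraries reached a normalized read count of 10. Over the 11296 genes that did so, limma called 0 genes at an adjusted p under 0.05, which is 0% of those tested. At an adjusted p under 0.01 with over 2-fold difference, the rule of the study, limma called 0%. By that rule the study reports genes changed in both directions, with DESeq2 on its own counts. Its test was not repeated on all libraries here, since the reads of WT replicate 1 were not recovered. At an unadjusted p under 0.05 there were 2301 genes (20.4%), edgeR on reads recovered from 5 libraries called 0%, and DESeq2 on the same reads called 402 of 10638 genes (3.78%). Without Bach2-cKO replicate 3, limma called 511 genes. All 10 factors passed the filter on low values. For 5 of the 10, Bcl11b, Satb1, Tcf7, Ets1 and Runx1, every library labelled Bach2-cKO was above every WT library, beside 14.6% of all genes tested, and none of the 10 was lower in all, beside 12.2%. Since the same contrast chose the genes, nothing is read from these counts. The median log2 difference of the 10 was 0.49, beside 0.08 for all genes tested. The plot of values in each library shows these levels.

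**Figure D1:**
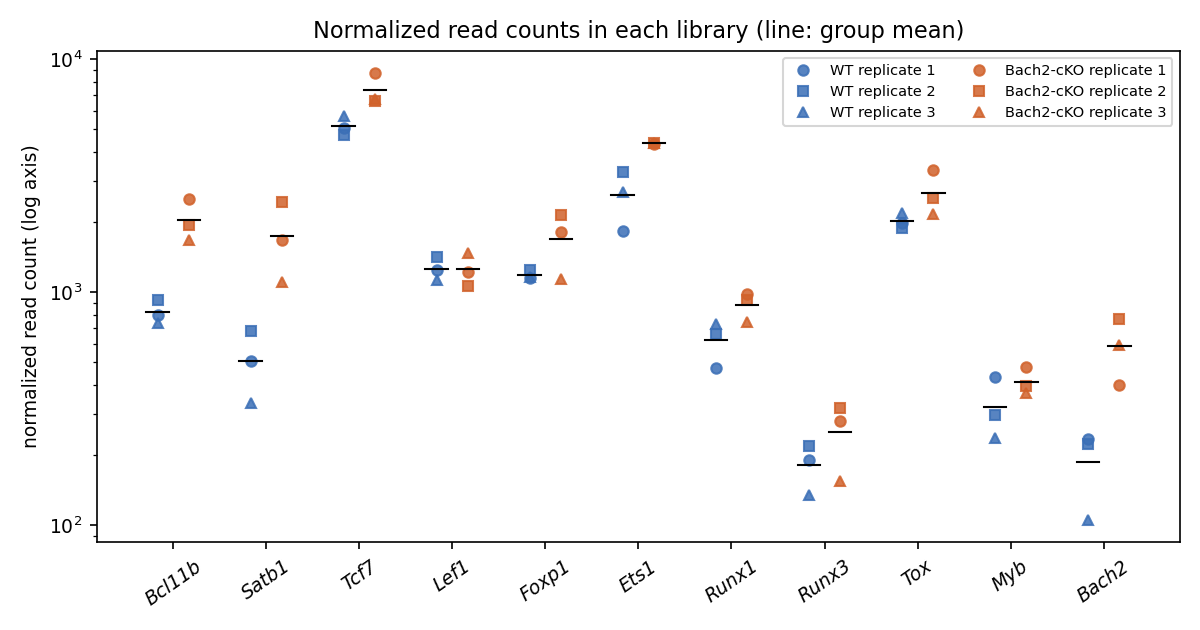
Normalized read counts of the 10 factors and of Bach2 in each of the 6 libraries on a log axis, with a horizontal line at the mean of each group (n = 3). Bcl11b, Satb1, Tcf7, Ets1, Runx1 and Bach2 have every library labelled Bach2-cKO above every WT library, and the other 5 genes overlap.

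Bcl11b and Satb1 encode chromatin regulators, a zinc finger protein needed for T lineage commitment and an organizer of chromatin loops in thymocytes. Bcl11b (chr12:107910403-108003602, GRCm38, minus strand) had values of 798, 919 and 739 in the WT libraries and 2508, 1932 and 1670.2 in those labelled Bach2-cKO. The lowest of the latter was well above the highest WT library, and the fold difference was 2.46 with a log2 difference of 1.30 ± 0.22 (SE). Satb1 (chr17:51736187-51833290, minus strand) had values of 507, 679.8 and 334 in the WT libraries and 1666, 2428 and 1106 in those labelled Bach2-cKO. The groups did not overlap, although values varied widely within each, with SDs of 0.51 and 0.57 on the log2 scale beside medians of 0.42 and 0.37 over all genes tested. The log2 difference of Satb1, 1.76 ± 0.33, was the largest of the 10. Satb1 shares its annotated span with 5 genes on its own strand and 1 on the other, so reads could be shared with them, whereas Bcl11b overlaps no other gene.

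The promoters of Satb1 and Bcl11b, which had the largest differences, and of Lef1, which had the smallest, are shown to place these genes side by side. They are RefSeq sequences of GRCm38.p6 from 250 bases before to 50 bases after the start farthest upstream, on the strand of the gene, at chr17:51833241-51833540, chr12:108003365-108003664 and chr3:131110047-131110346. The starts are those of RefSeq and the gene spans those of GENCODE M21, and for Bcl11b and Lef1 the 2 annotations place the start differently. Capitals mark matches on either strand to TGANTCA (AP-1 and BACH), TGTGGT (RUNX), CTTTGA (TCF and LEF) or CGGAAG (ETS).
Satb1: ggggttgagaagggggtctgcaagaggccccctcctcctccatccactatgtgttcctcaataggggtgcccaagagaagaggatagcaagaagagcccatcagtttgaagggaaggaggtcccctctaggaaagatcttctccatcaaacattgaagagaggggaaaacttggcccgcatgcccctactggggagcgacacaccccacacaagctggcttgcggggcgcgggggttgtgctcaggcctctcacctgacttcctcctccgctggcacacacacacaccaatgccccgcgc
Bcl11b: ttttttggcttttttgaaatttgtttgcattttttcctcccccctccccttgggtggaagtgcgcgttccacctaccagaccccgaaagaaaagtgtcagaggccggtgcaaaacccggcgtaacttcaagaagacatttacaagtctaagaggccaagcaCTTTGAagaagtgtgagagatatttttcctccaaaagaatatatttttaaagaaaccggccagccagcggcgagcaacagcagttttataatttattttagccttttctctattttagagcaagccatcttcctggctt
Lef1: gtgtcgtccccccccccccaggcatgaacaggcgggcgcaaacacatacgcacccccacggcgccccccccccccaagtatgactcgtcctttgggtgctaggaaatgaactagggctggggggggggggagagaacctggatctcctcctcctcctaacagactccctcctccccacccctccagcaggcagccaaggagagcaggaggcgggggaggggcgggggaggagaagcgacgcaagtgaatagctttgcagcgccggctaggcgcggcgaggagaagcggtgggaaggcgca
Of these windows, Bcl11b held 1 match to CTTTGA, and those of Satb1 and Lef1 held no match to any of the 4 motifs. The GC content was 59.0% for Satb1, 43.0% for Bcl11b and 67.3% for Lef1. Among all 32851 promoters of the reference, 7.81% held TGANTCA, 16.8% held TGTGGT, 16.0% held CTTTGA and 16.9% held CGGAAG. Promoters were matched for 8 of the 10 factors, in 20 windows, of which 0 held TGANTCA, 2 held TGTGGT, 3 held CTTTGA and 2 held CGGAAG. A match describes letters in these windows and not a binding site.

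Tcf7 and Lef1 encode the related HMG-box factors TCF-1 and LEF-1. Tcf7 (chr11:52252371-52283014, minus strand) had values of 5045, 4733 and 5719 in the WT libraries and 8698, 6607 and 6734 in those labelled Bach2-cKO. The groups did not overlap and the log2 difference was 0.50 ± 0.19 (SE), from narrow spreads of 0.14 and 0.22. Lef1 (chr3:131110471-131224356, plus strand) had values of 1241, 1407 and 1124 in the WT libraries and 1222, 1057 and 1475 in those labelled Bach2-cKO. The groups overlapped throughout, with means of 1257 ± 142 and 1251 ± 211 (SD, n = 3) and a log2 difference of -0.01 with a 95% interval from -0.47 to 0.45. The ratio of Lef1 to Tcf7, each per kb, was 0.166, 0.201 and 0.133 in the WT libraries. In the libraries labelled Bach2-cKO the ratio was 0.095, 0.108 and 0.148, and the value in replicate 3 lay within the WT range. Tcf7l2, a paralog, had a log2 difference of 0.94 ± 0.65 from values of 12.5 to 61.6, or 0.45 without WT replicate 3, and its groups overlapped.

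Ets1, Runx1 and Runx3 encode factors that bind neighbouring sites in T cell enhancers. Ets1 (chr9:32636221-32757820, plus strand) had values of 1833, 3283 and 2688 in the WT libraries and 4323, 4352 and 4347 in those labelled Bach2-cKO. As deposited, the latter differed from each other by far less than the WT libraries, with an SD of 15.5 beside 729, and the log2 difference was 0.78 ± 0.23 (SE). With the trend removed the spreads were closer, with log2 values of 11.34, 11.65 and 11.48 in the WT libraries and 11.81, 11.85 and 12.02 in those labelled Bach2-cKO. Among ETS family paralogs, Fli1 was 249, 463 and 315 against 672, 756 and 498 without overlap. Ets2 also did not overlap between groups, at 18.2, 94.2 and 88.4 against 137, 163 and 104, while Elf1 at 0.25 ± 0.27 and Gabpa at 0.09 ± 0.26 (0.05 and -0.09 once the trend was removed) did.

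Runx1 (chr16:92601466-92826149, minus strand) had values of 470.3, 663 and 728 in the WT libraries and 984, 919 and 745 in those labelled Bach2-cKO. The gap between groups was narrow, from 728 to 745, and the log2 difference of 0.52 ± 0.24 (SE) was 0.34 without WT replicate 1. Runx3 (chr4:135120652-135177990, plus strand), known for CD8 and cytotoxic lineages, had values of 189.8, 219 and 135 in the WT libraries and 279, 316 and 155 in those labelled Bach2-cKO. Bach2-cKO replicate 3 lay within the WT range, so the groups overlapped, and the log2 difference of 0.43 ± 0.36 was 0.74 without that library and 0.23 without WT replicate 3 or without Bach2-cKO replicate 2. The paralog Runx2 had overlapping groups and a log2 difference of 1.10 ± 0.52, or 0.57 once the trend was removed.

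Foxp1, Tox and Myb encode a forkhead factor that holds naive T cells quiescent, an HMG-box factor of CD4 lineage development and Tfh cells, and a factor of thymocyte survival. Foxp1 (chr6:98925338-99522721, minus strand) had values of 1145, 1246 and 1157 in the WT libraries and 1805, 2141 and 1139 in those labelled Bach2-cKO. Bach2-cKO replicate 3 was below all WT libraries, whereas the other 2 were above them. Its log2 difference of 0.47 ± 0.25 (SE) was 0.73 without Bach2-cKO replicate 3 and 0.28 without Bach2-cKO replicate 2. Foxp4, a paralog, had overlapping groups and a log2 difference of 0.33 ± 0.40, which was 0.12 without Bach2-cKO replicate 2, 0.18 without WT replicate 2 and -0.47 once the trend was removed.

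Tox (chr4:6686353-6991557, minus strand) had values of 1984, 1887 and 2173 in the WT libraries and 3324, 2519 and 2156 in those labelled Bach2-cKO. Only Bach2-cKO replicate 3 fell within the WT range, and the log2 difference of 0.38 ± 0.21 (SE) was 0.21 without Bach2-cKO replicate 1. The paralog Tox2 was 624, 1259.7 and 1365 against 2739, 1759 and 2189.8, without overlap, while Tox4 at 0.23 ± 0.29 (-0.13 with the trend removed) overlapped. Myb (chr10:21124935-21160984, minus strand) had values of 431, 296 and 236 in the WT libraries and 474, 395 and 368 in those labelled Bach2-cKO. WT replicate 1 was above 2 of the libraries labelled Bach2-cKO, and the log2 difference of 0.40 ± 0.29 was 0.63 without WT replicate 1 and 0.20 without WT replicate 3. Its paralogs Mybl1 at 0.62 ± 0.95 and Mybl2 at -0.28 ± 0.61 overlapped between groups. Mybl1, at 0.35 without WT replicate 1, was higher without overlap with the trend removed (0.46 ± 0.91), and Mybl2 was then -0.79. Mybl1, at values from 5.05 to 14.1, passed the filter only through the libraries labelled Bach2-cKO.

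Within the group labelled Bach2-cKO, replicate 1 held the highest value for 5 of the 10 factors and replicate 2 for 4. Replicate 3 was the lowest of its group for 7 of the 10 and the highest only for Lef1. The median deviation of the 10 factors from their means over all libraries was 0.43, 0.36 and 0.09 in these libraries on the log2 scale. In the WT libraries the median deviation was -0.28, -0.21 and -0.28, so Bach2-cKO replicate 3 was nearest to the WT group. Over all genes tested the median deviation lay between -0.06 and 0.08 in the 6 libraries.

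Transcript length moved with the groups. The longest annotated transcript was above the median of genes tested for 9 of the 10 factors, from 3656 nt for Lef1 to 8111 nt for Bcl11b, and 2471 nt for Tcf7 was the exception. The median log2 difference was -0.077 in the shortest decile of genes tested, lower at -0.324 and -0.291 in the next 2, and from there increased with length to 0.459 in the longest. The share of genes above 0 was 44.0% in the shortest decile, 30.2% in the next and 78.3% in the longest. Groups did not overlap, with the libraries labelled Bach2-cKO higher, for 4.97%, 3.82% and 26.4% of genes in these 3 deciles. The slope of log2 values on log2 length, relative to the mean of all libraries, was -0.142, -0.038 and -0.124 in the WT libraries and 0.192, 0.098 and 0.014 in those labelled Bach2-cKO. The slopes did not overlap and their means differed by 0.203 (exact permutation test, two-sided, p = 0.1, the smallest that 3 against 3 libraries allow). The smallest slope in the group labelled Bach2-cKO was that of replicate 3, which also had the lowest value for 7 of the 10 factors. Over the 10 factors, Spearman's rho between length and log2 difference was 0.64 (n = 10 genes that share the same libraries), or 0.33 with the trend removed, given as a description.

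**Figure D2:**
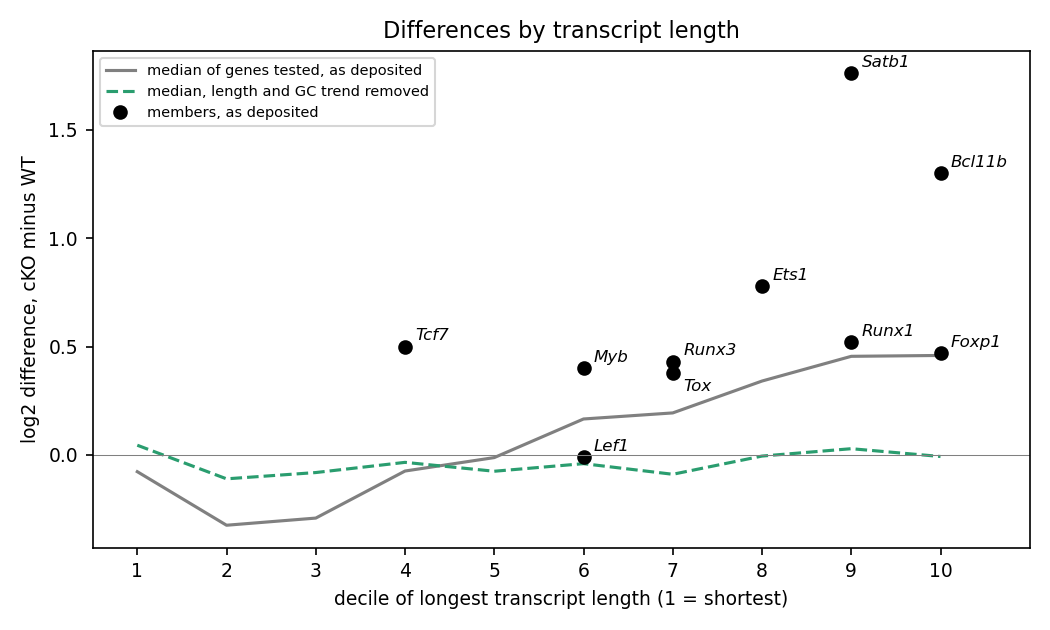
Log2 difference between the libraries labelled Bach2-cKO and WT (vertical axis) against the decile of longest transcript length (horizontal axis, 1 the shortest), with the median of genes tested as deposited and with the trend removed as lines and the 10 factors as points. The median as deposited is -0.077 in decile 1, lowest at -0.324 in decile 2 and 0.459 in decile 10, Satb1 and Bcl11b lie farthest above it, and Lef1 lies below it.

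Set against the median of its own length decile, each factor except Lef1 was higher. Satb1 stood at 1.76 beside a decile median of 0.46, and Bcl11b at 1.30 beside 0.46. Foxp1 at 0.47 and Runx1 at 0.52 were close to their decile median of 0.46. Tcf7, the shortest, stood at 0.50 beside -0.07, and Lef1 at -0.01 beside 0.17.

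After subtraction of a smooth function of length and GC from the values of each library, the median log2 difference of the 10 factors was 0.22, beside -0.04 for all genes tested. The difference of Satb1 was 1.40 ± 0.33 (SE), that of Bcl11b 0.73 ± 0.22 and that of Tcf7 0.52 ± 0.21. Ets1 stood at 0.41 ± 0.19, and these 4 did not overlap between groups, beside 8.92% of genes tested that were higher without overlap and 12.2% that were lower. Runx1 was 0.13 ± 0.21 and its groups overlapped, and Foxp1 was 0.08 ± 0.24. Runx3, whose transcript has a GC content of 55.9%, took the other sign at -0.10 ± 0.34. Tox was 0.22 ± 0.23, Myb 0.21 ± 0.33 and Lef1 -0.16 ± 0.23. The trend separates the groups in these libraries, so a length-related difference of the preparation and one of the cells cannot be told apart, and the subtraction removes either.

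**Figure D3:**
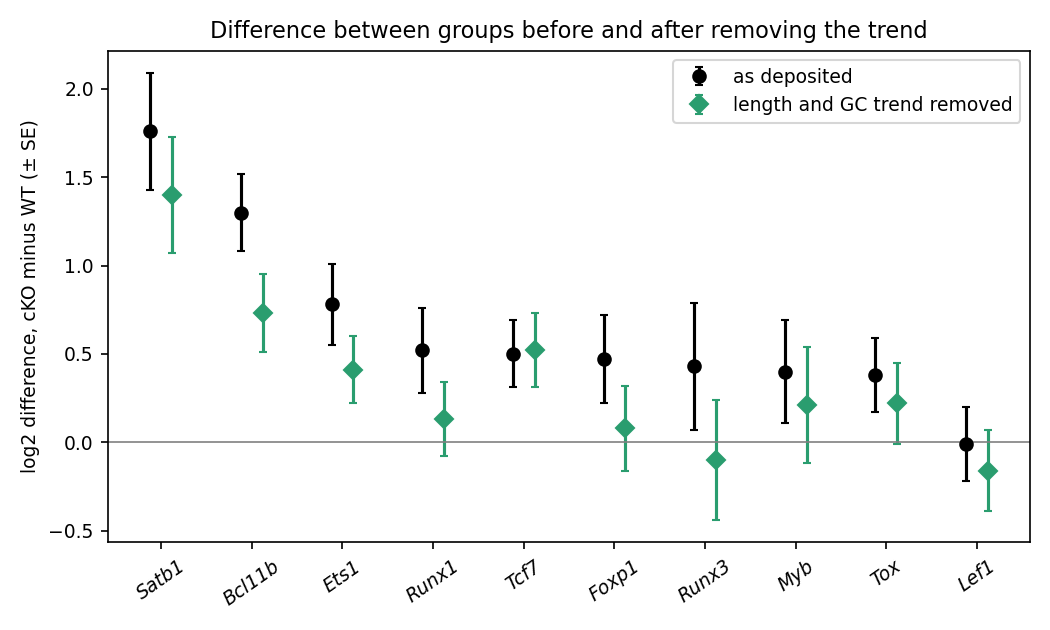
Log2 difference between the libraries labelled Bach2-cKO and WT for each of the 10 factors, with bars of ± SE (n = 3 and 3), as deposited (circles) and after the trend was subtracted (diamonds). Satb1, Bcl11b, Tcf7 and Ets1 remain above 0 by more than 1 SE, and Runx3 moves from 0.43 to -0.10.

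Levels of different factors were compared as normalized read counts per kb of the longest transcript. In the WT libraries Tcf7 was the most abundant at 2090.4 ± 204 (SD, n = 3), 51.7% of the summed level of the 10. Ets1 at 512 ± 144 and Tox at 509 ± 36.8 followed and did not differ beyond their spread. Lef1 came next at 344 ± 38.8, below every value of Tox but overlapping Ets1, which was 361 in WT replicate 1. Foxp1 at 165 ± 7.72 was separate from its neighbours. Runx1, Bcl11b, Myb and Satb1 lay between 106 and 81.2 with each overlapping the next, and Runx3 was last at 46.7 ± 10.9 and overlapped Satb1.

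In the libraries labelled Bach2-cKO the first 4 places by this length, Tcf7, Ets1, Tox and Lef1, were unchanged, whereas by the union of exons Bcl11b at 251 stood before Lef1 at 142 in place 4. Satb1 moved from place 9 to place 5 at 278 ± 106 per kb, overlapping both Lef1 and Bcl11b. Bcl11b was next at 251 ± 52.8 and overlapped Foxp1 at 236 ± 71.0. Tcf7 made up 50% of the summed level and Satb1 4.69%, beside 2.02% in the WT libraries. By the union of exons Satb1 was 2.07% in these and 0.892% in the WT libraries, in places 7 and 10. The order depends on the length used, since only 4 of the 10 factors kept their WT place with the length of the union of exons and 5 with the mean length of all transcripts.

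**Figure D4:**
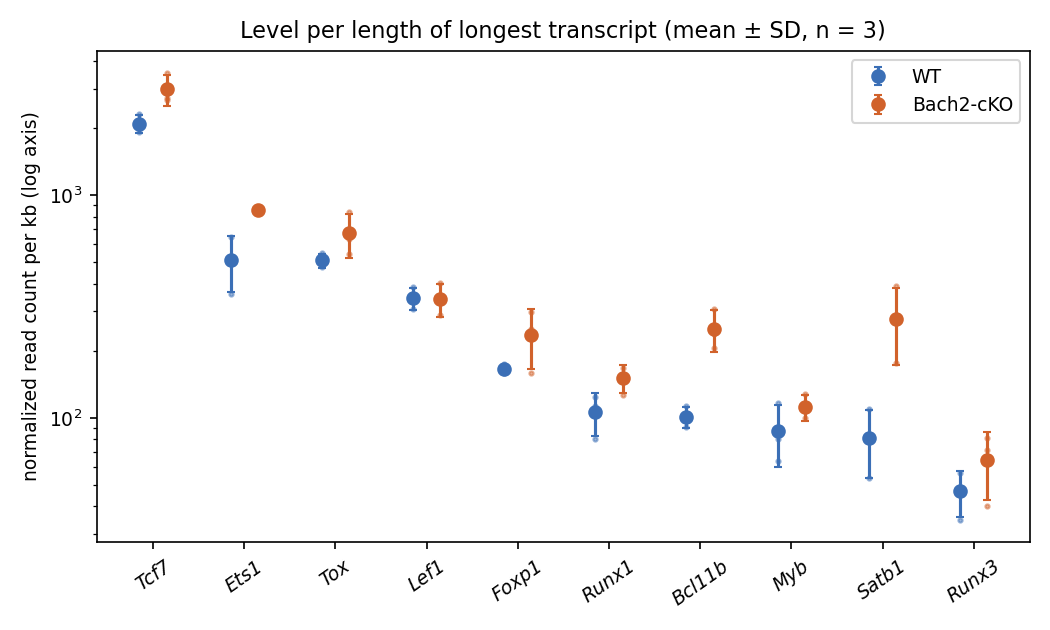
Normalized read counts per kb of the longest transcript on a log axis for the 10 factors, as mean ± SD with the 3 libraries of each group as small points. Tcf7 is highest in both groups, and Satb1 moves from 81.2 to 278.

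The other genes of this network were described from lists of paralogs, cofactors and related genes. Over all genes tested, 14.6% were higher and 12.2% lower without overlap, or 8.92% and 12.2% once the trend with length and GC content was taken out. Of 17 paralogs, 11 passed the filter, and 3 of these, Ets2, Tox2 and Fli1, were higher without overlap, with a median log2 difference of 0.62. With the trend removed 3 were higher, Tox2, Fli1 and, tested only through the libraries labelled Bach2-cKO, Mybl1, around a median of 0.46. Ets2 then overlapped, and its difference of 1.29 was 0.54 without WT replicate 1. Among 25 cofactors tested, 9 were higher and 3 lower without overlap, around a median of 0.24, whereas with the trend removed 3 were higher and 6 lower, around 0.09. They ranged from Bcl9 at 1.57, which was 0.89 without WT replicate 1, Bcl9l at 1.43 and Pygo2 at 1.19, partners of beta-catenin, to Hdac2 at -0.71, Rbbp7 at -0.97 and Rbbp4 at -1.87, subunits of histone deacetylase complexes. With the trend removed Bcl9 at 0.86 and Bcl9l at 0.48 overlapped between groups, Pygo2 was 0.70, and Rbbp7, which overlapped either way, was -0.64. Of 17 other T lineage factors, 5 were higher and 1 lower with a median of 0.43, and with the trend removed 2 were higher and 2 lower with a median of 0.04. They ranged from Gata3 at 1.48, Gfi1 at 1.29 and Ikzf1 at 0.91 to Hes1 at -0.23, Id2 at -0.27 and Ikzf3 at -0.31. Gfi1, Hes1 and Id2 overlapped between groups either way, and Gfi1 was 0.84 without WT replicate 3. The differences of Hes1 and Id2 also depended on single libraries, from -1.12 to 0.31 and from -0.53 to -0.06 with each left out in turn, and were 0.06 and 0.12 with the trend removed, when Ikzf1 was 0.55 and Ikzf3 was -0.64.

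The 16 T cell receptor and coreceptor genes had a median of -0.12, with 4 higher, among them Thy1 at 1.15 and Cd4 at 0.49, and 4 lower, and with the trend removed 2 were higher and 3 lower. Cd2 at -0.75, whose groups overlapped either way, Cd28 at -0.83 and Cd3e at -1.02 had the lowest differences of the 16. With the trend removed Cd4 was 0.31, and Cd28 overlapped at -0.94. A list named for lineages that T cells silence held 13 genes tested, although Id2 and Il2rb were abundant here, with WT means of 2844 and 985. Of the 13, 0 were separate between groups as deposited. With the trend removed Gzmb was higher at 3.47 ± 1.02 and Il2rb lower at -0.81 ± 0.34. As deposited the highest, Gzmb at 3.05 ± 1.09 (SE), Klrk1 at 2.10 ± 1.56 and Klrd1 at 2.0 ± 1.54, rested on WT replicate 1, where they were 2.02, 0 and 0. Without that library their differences were 1.62, -0.02 and -0.14. The lowest, Prf1 at -1.47 ± 1.13, was 199.8 in the same library. Its difference was -0.30 without WT replicate 1 and -2.7 without WT replicate 3. Klrb1c was -1.01 ± 0.47 and Il2rb -0.33 ± 0.31, the latter -0.03 without WT replicate 1 and -0.53 without WT replicate 2. Among 12 Tfh genes linked to TCF-1 and LEF-1, Il6st at 0.89 and Bcl6 at 0.74 were higher without overlap and Il6ra at 0.81 overlapped. With the trend removed these were 0.39, 0.41 and 0.23 and 0 of the 12 were higher. The study states that Bcl6 mRNA in Tfh cells was not significantly affected by Bach2 deletion. The difference of Il6st was 0.59 without WT replicate 1, and that of Il6ra was 1.24 without Bach2-cKO replicate 3. Slamf6 at -0.57 and Icos at -1.03 were lower without overlap, also with the trend removed, and Ccr7 at -1.14 overlapped.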

How the data were processed

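The deposited values are a signal unit, read counts that the authors divided by a size factor for each library, for 3 WT and 3 Bach2-cKO samples. The study's methods name Tophat2, HTSeq and DESeq2, while the submitters' processing notes name STAR 2.5.2b, R 3.5.1, DESeq2 1.20.0 and GRCm38, so the aligner is not settled. In each library 100% of values above 0 were whole multiples of its smallest value within 0.01. Reads were taken as recovered in 5 libraries, from 5045131 to 10987752 reads, and not in WT replicate 1, whose smallest value, 1.01, was the nearest to 1, with 1.02 in Bach2-cKO replicate 3 the next. Genes that reached 10 in 3 or more libraries were tested on log2(value + 1), a scale that understates differences of low genes, with limma 3.58.1 (trended variance, Benjamini-Hochberg). On the recovered reads edgeR 4.0.16 called 0 genes and DESeq2 1.42.0 called 402. Symbols were matched to GENCODE M21 gene models for 14696 of 14744 genes, and the trend in length and GC content was fitted with mgcv 1.9.3 in R 4.3.3 over 11268 genes. The members and lists were chosen with earlier results of these data known. Genes named are the 10 factors, Bach2, every paralog tested, and the 3 largest and 3 smallest log2 differences of each other list. Some genes that this rule takes are not reported here. Alternatives changed the pseudocount, scaling, filter, variance model, length, block, test and libraries. Whether counting used strand is not given in the sources used here, and 8 of the 10 factors overlap a gene on the other strand and 4 a gene on their own.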

Additional observations from a re-analysis of the deposited data

How the results depend on the processing

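Of 160 log2 differences of the 10 factors under alternatives, 143 moved by less than the spread between replicates, 12 by more, and 5 changed sign. The sign changes were those of Lef1, 0.10 with quantile normalization and 0.07 and 0.10 without WT replicate 2 or Bach2-cKO replicate 2 (from -0.14 to 0.10 over all libraries left out in turn), and of Runx3, -0.10 with the length and GC trend removed, with or without the replicate block. The median log2 difference of the 10 factors, 0.49, was 0.22 with that trend removed and 0.26 with the median of the length decile subtracted, an alternative chosen after seeing the data. Leaving out each library in turn gave medians from 0.39 to 0.69 and from 5 to 8 factors without overlap, the highest of both without Bach2-cKO replicate 3. With a library left out the groups are smaller and separate more readily. Shares over all genes tested were taken only as deposited (14.6% higher, 12.2% lower) and with the trend removed (8.92% and 12.2%). Nothing is read from the counts of factors without overlap under other settings. The number without overlap, 5, was 4 with rescaling to the same median, with the trend removed or with the decile median subtracted, and 6 with quantile normalization. The cause was not tested. The count of genes called by limma, 0, was 2 without the variance trend, 402 by DESeq2 on 5 libraries, and from 0 to 511 when each library was left out. The labels give no pairing by replicate number. The correlation between libraries of the same number, taken over deviations from group means, was -0.069, 0.116 and -0.039. Between libraries of other numbers it lay between -0.145 and 0.117. These values over all genes cannot show whether replicates of a number shared a batch, which was not tested. With a replicate block the SE of Satb1 was 0.21 beside 0.33, and that of Lef1 0.23 beside 0.21. With the replicate block limma called 0 genes. Leaving out each library in turn, chosen for the other named genes after seeing the data, changed the sign of 7 of 50 differences. For Alas2 only the WT libraries were left out. Their ranges were -0.01 to 0.39 for Elf1, -0.15 to 0.21 for Gabpa, -0.02 to 0.53 for Tox4, -0.53 to 0.20 for Mybl2, -1.12 to 0.31 for Hes1, -0.14 to 3.43 for Klrd1 and -0.02 to 3.5 for Klrk1. The difference in length slope, 0.203, kept its direction in both alternatives. Rescaling libraries to the same median moved the median difference of all genes from 0.082 to -0.002. With 3 libraries a group, spread within groups is estimated from few values.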
